A study of Mus musculus with 6 samples.

Results

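The genes described here encode the machinery that brings secretory and membrane proteins into the endoplasmic reticulum (ER) and packs them into coated vesicles. They are the 56 protein-coding genes, of 54532 genes in the deposited table, whose names place them in the signal recognition particle (SRP) and its receptor, the Sec61 channel with Sec62 and Sec63, the translocon-associated TRAP complex, signal peptidase, oligosaccharyltransferase, the Sec22 SNARE family, and the COPII and COPI vesicle coats. Gene names and biotype define them. RNA sequencing was done on L929 cells, a wild-type mouse fibroblast line derived from 1 clone. The 3 control libraries came from cells labelled as controls. The 3 treated libraries came from cells given the inflammatory cytokine TNF-α at 10 ng/ml together with actinomycin D, a DNA-binding drug that blocks transcription, at 1 µg/ml for 12 hours. Neither agent was given by itself, so a difference cannot be assigned to TNF-α or to actinomycin D. Whether the libraries of a group came from separate cultures is not stated in the labels, and p-values therefore measure only the spread between these libraries.

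A protein bound for secretion carries a signal peptide that SRP recognises as it leaves the ribosome. SRP docks on its receptor at the ER, and the chain passes through the Sec61 channel. TRAP sits beside the channel, signal peptidase removes the signal, and oligosaccharyltransferase adds N-linked glycans. Folded cargo leaves in COPII vesicles, whose inner Sec23-Sec24 layer binds cargo and whose outer Sec13-Sec31 cage bends the membrane. COPI vesicles carry escaped ER proteins and cargo receptors back from the Golgi. Fibroblasts make large amounts of collagen, which depends on this route.

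Library totals ran from 16056207 to 18036322 counts. By library total, the 8 genes of the fibroblast list summed to between 8424 and 9628 CPM in the control group and between 11960 and 15008 CPM after treatment, mostly through Vim, the 3 collagen genes and Sparc. Thy1 had 0 to 4 counts, Pdgfrb went from 1632 to 2042 counts in controls to 457 to 502 in treated libraries, and S100a4 had 771 to 1092 and then 1025 to 8222. The macrophage list summed to 3.30 to 4.01 CPM in controls and 15 to 20.4 in treated libraries, through Cd68 at 42 to 50 and then 248 to 346 counts. In that list Ptprc and Adgre1 had 0 or 1 count and Csf1r had 5 to 23. Of the epithelial genes, Epcam was at 0 in every library, and Cdh1, Krt8 and Krt18 had at most 9 counts. Of the endothelial genes, Kdr was at 0, and Pecam1 and Cdh5 had at most 5 counts. The part of Cd68-expressing cells in the results below was not tested. Treated replicate 3 lay nearest to the controls on the first principal component. TMM, the main scaling, sets the bulk of genes equal and used factors of 1.34 to 1.53 in controls and 0.640 to 0.797 in treated libraries. Ribosomal protein genes held 7.32% to 8.57% of counts in controls and 17.9% to 22.4% in treated libraries. Each rise or fall below is relative to a scale, as RNA content per cell was not measured, and fewer cells and less RNA per cell cannot be told apart.

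On the TMM scale, genes for entry into the ER mostly rose in treated cells, genes for the inner COPII coat mostly fell, and COPI genes mostly rose. Of the 56 genes, 55 had enough counts to be tested with edgeR's quasi-likelihood test, with p-values adjusted by Benjamini-Hochberg over all 13290 genes tested. At an adjusted p under 0.05, 29 of the 55 were higher in treated cells, 14 were lower and 12 were not called. Across all genes tested, 34.6% were called higher and 40.2% lower. Groups did not overlap in TMM-scaled CPM for 45 of the 55, against 77.9% of all genes tested. The median log2 fold change of the 55 genes was 0.47, which is 0.65 above the median of all tested genes (−0.18). Sec31b, a minor COPII cage gene, was not tested, with 2, 6 and 7 counts in controls and 8, 7 and 1 in treated libraries.

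The split between rises and falls depended on the scale. With library totals alone, the median of all genes moved by −1.04 on the log2 scale, and 14 of the 55 genes were higher and 30 lower. On that scale 17.1% of all genes were called higher and 59.6% lower. The 14 higher genes were Srp14, Srp9, Sec61b, Sec61g, Ssr2, Ssr4, Sec11c, Spcs1, Dad1, Ddost, Rpn2, Sec13, Cope and Copz2, all of which were also higher on the TMM scale. They were called higher in each of 21 settings, the exception being the scale that holds ribosomal protein genes equal. There, 0 of the 55 genes were called higher, 0 had an unadjusted p under 0.05 in that direction, and 49 were lower, against 1.89% of all genes higher and 82.3% lower. With mitochondrially encoded mRNAs held equal, 16 were higher and 16 lower, against 22.3% and 46.6% of all genes. Srp54c, Srp68, Sec22a, Sec16a, Sec23b, Sec23ip, Sec24a, Sec24b, Sec24d and Arcn1 were lower in all 22 settings. Leaving out each library in turn kept 27 of the 29 higher calls and 12 of the 14 lower calls.

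**Figure D1:**
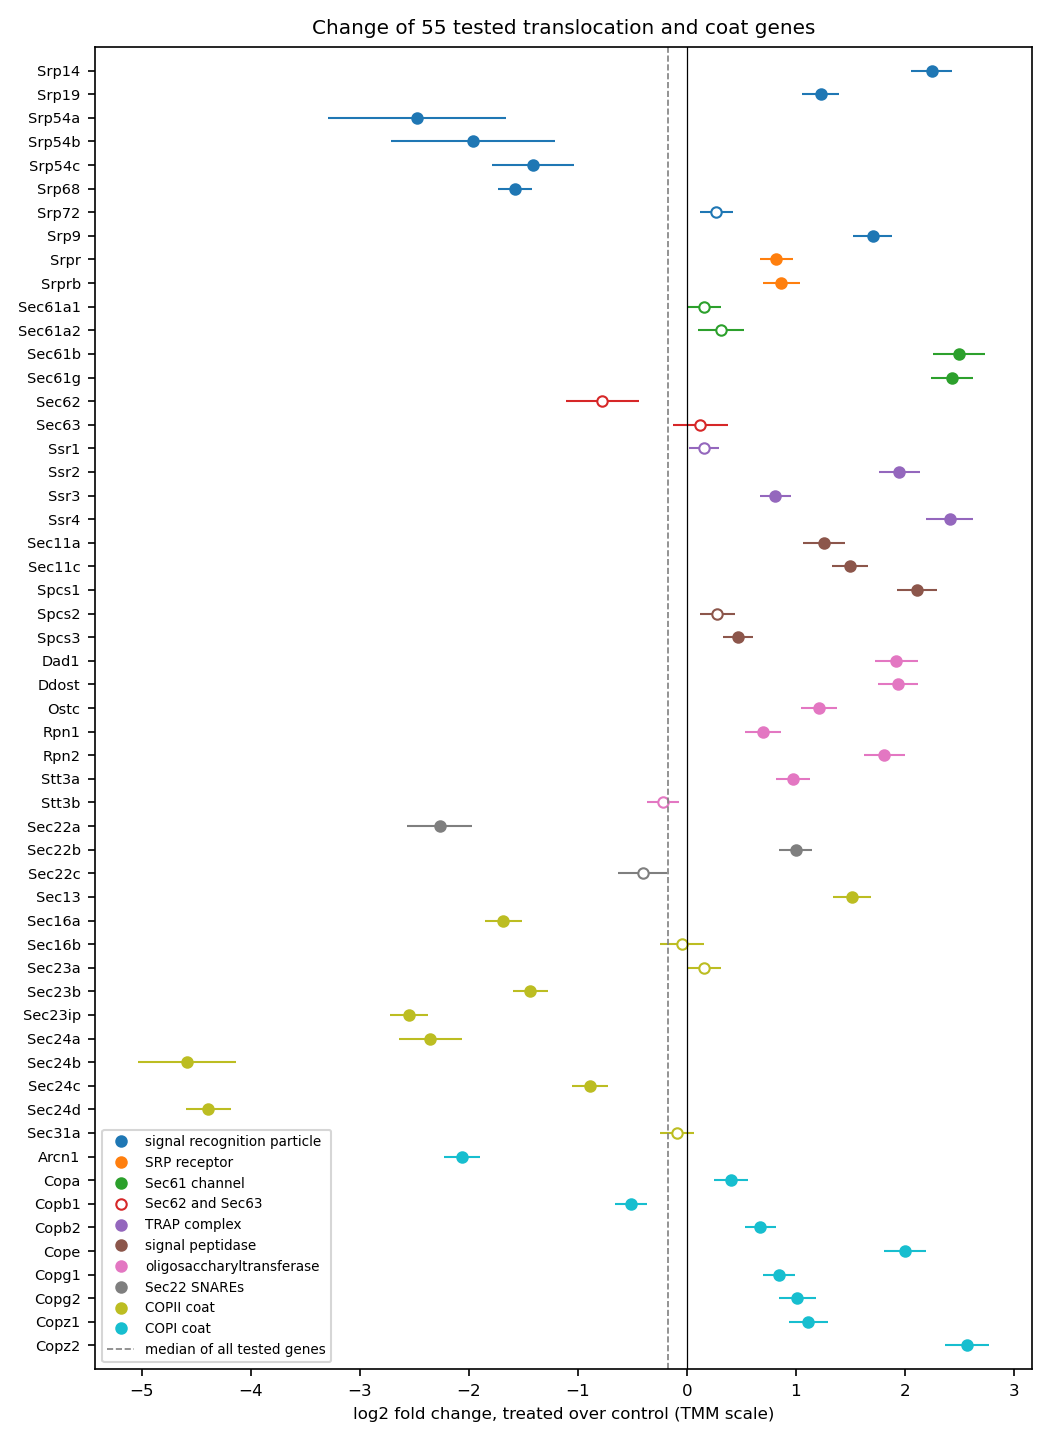
Log2 fold change of each of the 55 tested genes, treated over control, on the TMM scale, with horizontal bars of ± 1 SE, coloured by role. Filled points passed an adjusted p under 0.05 and open points did not. The Sec24 genes lie between −4.59 and −0.89, while Sec61b, Sec61g, Ssr4 and Copz2 lie above 2.4. The dashed line is the median of all tested genes (−0.18), and with library totals alone all genes shift to lower values.

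The whole set held nearly the same share of all counts in every library, with 1.17%, 1.13% and 1.16% in controls and 1.10%, 1.10% and 1.16% in treated libraries. Its composition moved. The 32 genes of translocation and early processing went from 0.778%, 0.748% and 0.766% of counts in controls to 0.879%, 0.860% and 0.897% in treated libraries. The 12 COPII genes went from 0.159%, 0.153% and 0.156% to 0.0539%, 0.0554% and 0.0651%. The 9 COPI genes went from 0.222%, 0.215% and 0.222% to 0.158%, 0.179% and 0.184%. In none of these 3 groups did treated and control libraries overlap. Shares of all counts follow library totals, which is why the COPI share is lower here while most COPI genes were higher on the TMM scale.

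**Figure D2:**
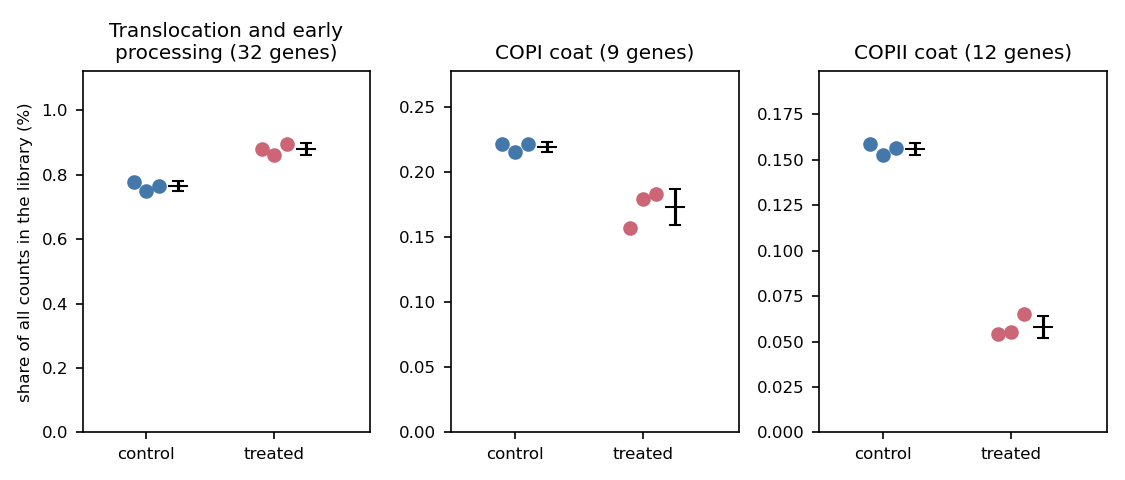
Share of all counts in each library (%), for 3 groups of genes, with the mean and SD (bars, n = 3 libraries per group) beside the points. Each axis starts at 0 and has its own range. COPII genes lie at 0.153% to 0.159% of counts in controls and 0.0539% to 0.0651% in treated libraries, while translocation genes lie higher in every treated library.

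SRP is an RNA-protein particle in which Srp9 and Srp14 form the domain that pauses translation, Srp54 binds the signal peptide, and Srp68, Srp72 and Srp19 hold the particle together. Its 8 genes split by subunit: Srp14, Srp19 and Srp9 rose, Srp68 and the 3 Srp54 copies fell, and Srp72 was not called. By library totals, Srp14 and Srp9 were higher and 5 of the 8 were lower, against 17.1% and 59.6% of all genes tested. Srp14 had 74.8, 60.8 and 69.2 CPM in control replicates 1 to 3 and 386, 329 and 256 CPM in treated replicates. All treated libraries lay above all controls, and the log2 fold change was 2.25 ± 0.18 (SE, adjusted p = 1.56e-06). Srp9 rose by 1.70 ± 0.18 and Srp19 by 1.23 ± 0.17. Srp68 moved the other way, from 151, 126 and 133 CPM to 50.6, 44.4 and 42.2 CPM, a log2 fold change of −1.58 ± 0.15 (adjusted p = 4.58e-06). Counts of Srp14 per base of gene length were 1.14 times those of Srp68 in controls and 16.1 times in treated libraries (means of 3). No scaling changes this ratio within a library, and it was chosen after its values were seen. It carries no gene length offset, with which Srp14 changed by 1.18 and Srp68 by −1.78. Srp72 had 108, 106 and 112 CPM in controls and 119, 120 and 153 CPM in treated libraries (log2 fold change 0.27 ± 0.15, adjusted p = 0.129). It was called higher with median-ratio and upper-quartile factors, with protein-coding genes only and with a gene length offset (0.98, adjusted p = 0.000178). It was called lower with library totals alone (−0.76, adjusted p = 0.00739) and on the ribosomal protein scale (−2.09, adjusted p = 0.000411).

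The Srp54 copies are tandem genes on chromosome 12, where Srp54a spans 55080262 to 55115367, Srp54b 55155104 to 55189573 and Srp54c 55230168 to 55263836 in the deposited GRCm38 coordinates. Of their 50-base stretches, 70.5% in Srp54a, 89.4% in Srp54b and 93.9% in Srp54c also occur in another gene, so the split of reads between copies is uncertain. Summed over the copies, control libraries held 294, 916 and 594 counts and treated libraries 51, 113 and 136. The summed counts did not overlap between groups, although control replicate 1 was low. Srp54c, with the most counts, had 252, 660 and 401 in controls and 47, 86 and 108 in treated libraries, and fell by 1.41 on the log2 scale (± 0.37 SE, adjusted p = 0.00587). Srp54b had 30, 235 and 178 counts and then 3, 27 and 25, and its groups overlap in CPM. Its call (log2 fold change −1.96 ± 0.75, adjusted p = 0.0357) was lost when control replicate 2 or 3 or any treated replicate was left out, with adjusted p from 0.0734 to 0.122. It was also lost with upper-quartile factors (adjusted p = 0.0655), limma-voom (0.203) and a gene length offset (0.0966). Srp54a had 12, 21 and 15 counts and then 1, 0 and 3, a log2 fold change of −2.48 ± 0.82 (adjusted p = 0.0171). That call was lost without control replicate 2 (adjusted p = 0.0702), with DESeq2 (0.0514) and with a gene length offset (0.0694), and without treated replicate 3 the change was −3.74.

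The SRP receptor, a peripheral subunit (Srpr) held at the membrane by Srprb, rose in both genes on the TMM scale and in neither with library totals alone. Srprb went from 79.5, 60.3 and 73.9 CPM to 134, 146 and 110 CPM (log2 fold change 0.87 ± 0.17, adjusted p = 0.000696). Srpr went from 269, 216 and 242 CPM to 417, 415 and 453 CPM (0.82 ± 0.15, adjusted p = 0.000474). All treated values lay above all control values for both genes. Both genes share sequence with other loci (17.8% of 50-base stretches in Srpr, 19.9% in Srprb).

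The Sec61 channel has a large pore-forming subunit, encoded by Sec61a1 or its paralog Sec61a2, and the small subunits Sec61b and Sec61g. Both small-subunit genes rose on the TMM scale, and neither pore gene was called there. The scale of library totals gave Sec61b and Sec61g higher and Sec61a1 and Sec61a2 lower. Sec61b (chromosome 4, 47474658 to 47483242) had 99.9, 76.4 and 84.6 CPM in controls and 671, 444 and 354 CPM in treated libraries, a log2 fold change of 2.49 ± 0.24 (adjusted p = 4.84e-06). Sec61g had 104, 88.4 and 98.9 CPM and then 655, 509 and 409 CPM (2.43 ± 0.20, adjusted p = 1.41e-06). For both genes the treated libraries lie far above the controls and differ among themselves, with treated replicate 1 the highest. Sec61a1 had 342, 269 and 301 CPM in controls and 343, 308 and 365 CPM in treated libraries, which overlap (0.16 ± 0.16, adjusted p = 0.381). Sec61a2 had 22.8, 23.6 and 23.2 CPM and then 35.3, 20.5 and 30.9 CPM (0.31 ± 0.21, adjusted p = 0.202). With a gene length offset both pore genes were called higher, Sec61a1 at 1.01 (adjusted p = 0.000175) and Sec61a2 at 0.78 (adjusted p = 0.00707), and Sec61a1 was also higher with upper-quartile factors (0.32, adjusted p = 0.0483). Within each library, counts per base of Sec61b were 1.55, 1.51 and 1.49 times those of Sec61a1 in controls and 10.4, 7.65 and 5.14 times in treated libraries, a balance chosen after its values were seen. With the gene length offset, Sec61b was higher by 1.48 (adjusted p = 0.000197) and Sec61g by 2.09 (adjusted p = 4.32e-06). The gap between Sec61b and Sec61a1 was therefore smaller with the offset than on the TMM scale, and the balance carries no such correction. Of the 50-base stretches, 18.2% in Sec61a2, 17.4% in Sec61b and 14.8% in Sec61g also occur in other genes.

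Sec62 and Sec63 help post-translational entry and recruit the chaperone BiP, and neither was called on the TMM scale. Sec62 had 435, 1210 and 794 counts in controls and 169, 206 and 321 in treated libraries, so the controls themselves differed widely. Its log2 fold change was −0.78 ± 0.34 (adjusted p = 0.0571). Without control replicate 1 it was −1.10 and was called lower (adjusted p = 0.00607), as it was with DESeq2 (adjusted p = 0.0331), with no filter and with library totals alone. Sec63 had 72.2, 114 and 97.4 CPM and then 66.8, 111 and 132 CPM (0.12 ± 0.25, adjusted p = 0.667). A gene length offset made Sec63 a higher call (1.16, adjusted p = 0.00215), and it was lower with library totals alone (−0.90, adjusted p = 0.0392).

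The TRAP complex has the subunits Ssr1 to Ssr4, which aid translocation of some signal peptides. Ssr2, Ssr3 and Ssr4 rose on the TMM scale, and with library totals alone Ssr2 and Ssr4 were higher and Ssr1 lower. Ssr4 (chromosome X, 73787028 to 73790830) had 169, 123 and 144 CPM in controls and 952, 792 and 574 CPM in treated libraries (2.41 ± 0.22, adjusted p = 2.78e-06). Every treated library lies above every control, by more than the spread within either group. Ssr2 rose by 1.95 ± 0.19 and Ssr3 by 0.81 ± 0.14. Ssr1 had 316, 317 and 297 CPM and then 344, 356 and 337 CPM, groups that do not overlap, with a log2 fold change of 0.16 ± 0.14 (adjusted p = 0.322). It was called higher with a gene length offset (1.31, adjusted p = 1.17e-05) and with upper-quartile factors (0.32, adjusted p = 0.0297).

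**Figure D3:**
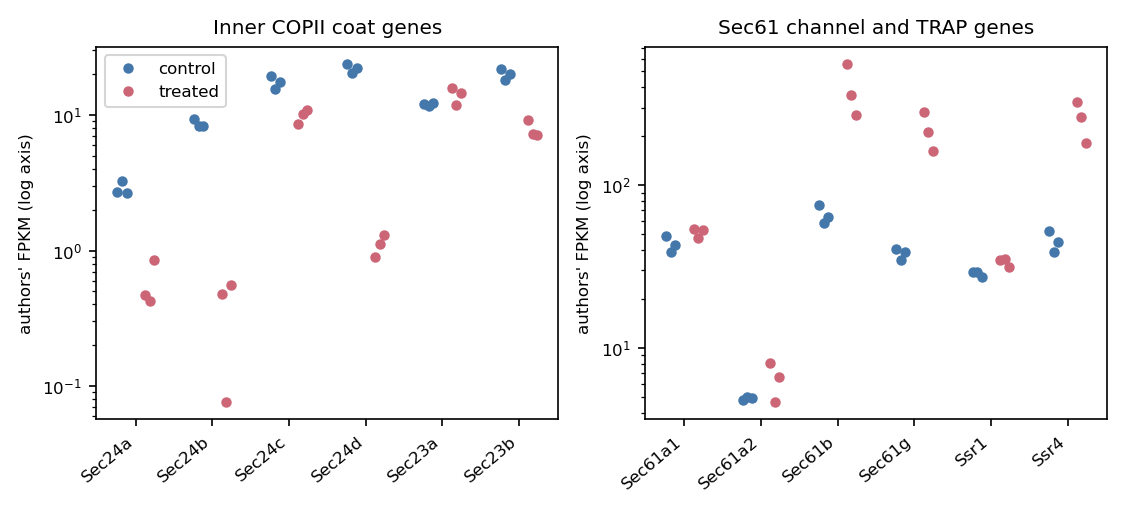
The authors' FPKM (counts per kilobase of gene length with the authors' own scaling of each library, log axis) in each of 3 control and 3 treated libraries, for the inner COPII coat genes (left) and for Sec61 channel and TRAP genes (right). Sec24b and Sec24d lie below 1.4 FPKM in every treated library and at 8.25 to 23.9 in controls. Sec61b, Sec61g and Ssr4 lie higher in treated libraries, while Sec61a1 and Ssr1 stay close to the controls on this scale.

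Signal peptidase cuts the signal with a catalytic subunit, Sec11a or Sec11c, and the accessory subunits Spcs1, Spcs2 and Spcs3. On the TMM scale 4 of its 5 genes rose, against 34.6% of all genes tested, and Spcs2 was not called. Scaling by library totals left Sec11c and Spcs1 higher and Spcs2 and Spcs3 lower, against 17.1% and 59.6% of all genes. Spcs1 showed the largest change in the group, from 77.5, 64.7 and 78.0 CPM to 362, 340 and 250 CPM (2.11 ± 0.18, adjusted p = 2.03e-06), with no overlap. Sec11a had 96.8, 70.7 and 79.6 CPM and then 242, 197 and 152 CPM (1.26 ± 0.20, adjusted p = 0.000144). Sec11c had 41.7, 35.3 and 39.1 CPM and then 128, 109 and 91.0 CPM (1.50 ± 0.17, adjusted p = 1.33e-05). Both catalytic genes lay higher in every treated library. Spcs3 changed by 0.47 ± 0.14 (adjusted p = 0.00900), a call lost without control replicate 3 (adjusted p = 0.0731) and with no filter on low counts. Spcs2 had a log2 fold change of 0.28 ± 0.16 (adjusted p = 0.137), and without treated replicate 3 it was called higher at 0.34 (adjusted p = 0.0185), as it was with a gene length offset (0.65, adjusted p = 0.00406), upper-quartile factors and protein-coding genes only.

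Oligosaccharyltransferase transfers the glycan with a catalytic subunit, Stt3a in the complex that sits at the channel or Stt3b in the complex that also acts after translocation. Rpn1, Rpn2, Ddost, Dad1 and Ostc are further subunits. On the TMM scale 6 of the 7 genes rose, against 34.6% of all genes tested, and Stt3b was not called. By library totals, Dad1, Ddost and Rpn2 were higher and Rpn1 and Stt3b lower, against 17.1% and 59.6% of all genes. Ddost (chromosome 4, 138304730 to 138312628) had 464, 329 and 385 CPM in controls and 1599, 1577 and 1334 CPM in treated libraries (1.94 ± 0.19, adjusted p = 4.47e-06). It held the highest FPKM of the 56 genes in both groups, at 179 ± 30 in controls and 725 ± 97 in treated libraries (SD, n = 3). Dad1, named for its part in protecting cells from death, rose by 1.92 ± 0.19 and Ostc by 1.21 ± 0.17. Rpn2 had 684, 505 and 570 CPM and then 2006, 2317 and 1845 CPM (1.81 ± 0.19, adjusted p = 7.19e-06). Its partner Rpn1 had 535, 403 and 470 CPM and then 803, 779 and 707 CPM (0.70 ± 0.17, adjusted p = 0.00259).

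Of the catalytic subunits Stt3a was called higher and Stt3b was not called. Stt3a had 394, 334 and 360 CPM in controls and 749, 662 and 728 CPM in treated libraries (0.98 ± 0.15, adjusted p = 0.000159). Stt3b had 239, 218 and 228 CPM and then 176, 223 and 189 CPM, which overlap (−0.22 ± 0.15, adjusted p = 0.201). Without treated replicate 2, Stt3b was called lower at −0.40 (adjusted p = 0.0228). Of the summed FPKM of this pair, Stt3a made up 42.8% ± 0.9 in controls and 63.2% ± 4.3 in treated libraries (SD, n = 3).

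Sec22b is a SNARE that takes part in fusion of vesicles between the ER and Golgi, and Sec22a and Sec22c are its relatives by name. Sec22b rose on the TMM scale and was not called with library totals alone, and Sec22a fell on both. Sec22b had 75.0, 68.8 and 64.5 CPM in controls and 158, 137 and 121 CPM in treated libraries (1.00 ± 0.15, adjusted p = 0.000138). Sec22a had 12.3, 10.7 and 13.3 CPM and then 3.62, 2.03 and 1.91 CPM (−2.27 ± 0.30, adjusted p = 4.07e-05), on 297, 263 and 336 counts against 41, 23 and 25. Sec22c had 10.4, 9.06 and 9.35 CPM and then 7.58, 6.27 and 7.93 CPM (−0.40 ± 0.22, adjusted p = 0.124). Leaving out treated replicate 1 made it a lower call (−0.52, adjusted p = 0.0421). Treated and control libraries did not overlap for any of these 3 genes, nor for 77.9% of all genes tested.

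The COPII coat had the lowest median of the 10 role groups. Of its 11 tested genes 7 fell and 1 rose, against 40.2% and 34.6% of all genes tested. Their median log2 fold change was −1.44, 1.26 below the median of all genes. By library totals 10 were lower and Sec13 was higher, against 59.6% and 17.1% of all genes. The falls were in the inner layer and in the factors that organise exit sites. Sec24d (chromosome 3, 123267455 to 123365641) is a cargo-binding subunit. It had 157, 133 and 146 CPM in controls and 5.38, 6.89 and 8.46 CPM in treated libraries, on 3786, 3263 and 3700 counts against 61, 78 and 111. Its log2 fold change was −4.39 ± 0.20 (20.9-fold lower, adjusted p = 2.27e-07). Sec24b (chromosome 3, 129982759 to 130061553) had 58.3, 51.2 and 51.6 CPM and then 2.73, 0.441 and 3.43 CPM. Its log2 fold change of −4.59 ± 0.45 (adjusted p = 7.30e-06) rests on 31, 5 and 45 treated counts against 1409, 1255 and 1308 in controls. Treated replicate 2 was the lowest for Sec24b, yet every treated library lay far below every control. Sec24a had 29.9, 35.7 and 29.4 CPM and then 4.76, 4.41 and 9.30 CPM (−2.35 ± 0.29, adjusted p = 2.36e-05). Sec24c fell least, from 127, 101 and 114 CPM to 51.5, 62.4 and 70.5 CPM (−0.89 ± 0.17, adjusted p = 0.000580), a call that a gene length offset ended (−0.09, adjusted p = 0.63).

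The 4 Sec24 proteins bind partly different cargo signals, so their proportions are given as shares of the family's summed FPKM. In controls Sec24d held 43.4% ± 0.5, Sec24c 34.1% ± 1.3, Sec24b 16.9% ± 0.5 and Sec24a 5.65% ± 1.04 (SD, n = 3). In treated libraries Sec24c held 82.9% ± 3.1, Sec24d 9.20% ± 0.56, Sec24a 4.77% ± 1.34 and Sec24b 3.09% ± 2.14. The family's summed counts were 8987, 7857 and 8639 in controls and 730, 840 and 1203 in treated libraries. Thus Sec24c went from the second place to most of a smaller total, and Sec24a and Sec24b did not differ in treated libraries beyond their spread.

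Sec23 is the Sar1 GTPase-activating subunit that pairs with Sec24. Sec23b fell from 144, 117 and 132 CPM to 55.4, 44.2 and 45.7 CPM (−1.44 ± 0.16, adjusted p = 1.13e-05, and −0.64 with a gene length offset, adjusted p = 0.00366). Its paralog Sec23a had 60.2, 58.0 and 61.4 CPM and then 72.7, 55.4 and 72.1 CPM, which overlap (0.16 ± 0.16, adjusted p = 0.385, and 0.70 with a gene length offset, adjusted p = 0.00239). Sec23a made up 37.4% ± 2.0 of the pair's FPKM in controls and 64.1% ± 2.8 in treated libraries, so the order of the pair was exchanged. Sec16a, the scaffold of exit sites, fell from 123, 111 and 114 CPM to 29.0, 37.0 and 42.5 CPM (−1.68 ± 0.17, adjusted p = 6.46e-06, and −0.62 with the offset, adjusted p = 0.00708). Its shorter paralog Sec16b had 27.9, 27.6 and 28.2 CPM and then 22.8, 23.8 and 34.7 CPM (−0.04 ± 0.20, adjusted p = 0.856, and 0.62 with the offset, adjusted p = 0.0175). Sec23ip, which binds Sec23 at exit sites, fell by 2.55 on the log2 scale (± 0.17 SE, adjusted p = 6.93e-07).

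Neither tested gene of the outer cage was called lower on the TMM scale. Sec13, which is also a nuclear pore subunit, rose from 147, 109 and 126 CPM to 408, 374 and 306 CPM (1.51 ± 0.17, adjusted p = 1.55e-05), and was the only COPII gene called higher on the TMM scale or by library totals. Sec31a, its partner in the cage, had 245, 197 and 210 CPM and then 179, 219 and 213 CPM, which overlap (−0.09 ± 0.15, adjusted p = 0.600). It was lower with library totals alone and higher with a gene length offset (0.89, adjusted p = 0.000426). The 4 Sec24 genes together had 1.33 ± 0.10 times the counts per base of Sec13 in controls and 0.107 ± 0.035 times in treated libraries (SD, n = 3). This balance was chosen after its values were seen and carries no gene length offset.

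Promoters were searched for 2 motifs tied to ER stress, because ER stress factors bind them in the textbook unfolded protein response. The RefSeq table (GRCm38.p6) held 48 of the 56 genes, with 250 bases before and 50 after each start, read on both strands. The ER stress element, CCAAT and CCACG with 9 bases between, was in 0 of 48 genes and in 0.137% of all 27025 genes of the table. The motif TGACGTGG was in 5 of 48 genes (10.4%) and in 0.714% of all genes, and read on the other strand it begins with the CCACG of the first motif. CCACG by itself was also more frequent here, in 31 of 48 genes (64.6%) against 35.5% of all genes, and enrichment was not tested. The 5 genes with TGACGTGG were Sec24d, Sec16b, Sec23a, Copb1 and Copb2, all of them coat genes. Their calls were mixed: Sec24d and Copb1 lower, Copb2 higher, and Sec16b and Sec23a not called. A match describes letters and not a bound site. The 3 matches that lie wholly before the RefSeq start are shown because these genes share the motif and differ in response, with the motif in capitals and each read along the gene's own strand, so that Copb1 shows it as its reverse complement. They lie at chr3:123267459-123267488 (plus strand) for Sec24d, chr1:157506741-157506770 (plus strand) for Sec16b and chr7:114254690-114254719 (minus strand) for Copb1. In all 3 genes the motif lies inside the deposited gene model, whose start differs from that of RefSeq.
Sec24d: gcccgggcgccTGACGTGGcactagcaacc
Sec16b: ttctgtgtggcTGACGTGGcacggcagttt
Copb1: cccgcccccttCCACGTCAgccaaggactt
Beside these shared letters, Sec24d changed by −4.39, Sec16b by −0.04 and Copb1 by −0.51 on the log2 scale.

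COPI is a coat of subunits recruited together to Golgi membranes by the GTPase Arf1: Copa, Copb1, Copb2, Arcn1, Cope, and a Copg and a Copz subunit with paralogs. On the TMM scale 7 of its 9 genes rose and Arcn1 and Copb1 fell, against 34.6% and 40.2% of all genes tested. By library totals, Cope and Copz2 were higher and Arcn1, Copa, Copb1 and Copb2 lower, against 17.1% and 59.6% of all genes. Copz2 (chromosome 11, 96849870 to 96861203) showed the largest rise of all 55 genes, from 58.8, 42.1 and 45.0 CPM to 288, 350 and 230 CPM (2.57 ± 0.20, adjusted p = 1.30e-06). Copz1 had 207, 153 and 173 CPM and then 360, 463 and 332 CPM (1.12 ± 0.18, adjusted p = 0.000191). Cope rose by 2.00 ± 0.19, from 141, 105 and 115 CPM to 529, 539 and 376 CPM. Arcn1 (chromosome 9, 44741564 to 44767845) encodes the delta subunit. It had 251, 254 and 259 CPM in controls, a narrow range, and 58.9, 51.5 and 72.7 CPM in treated libraries (−2.06 ± 0.16, adjusted p = 1.37e-06). Per base of gene length, Cope had 2.11 ± 0.35 times the counts of Arcn1 in controls and 36.5 ± 12.2 times in treated libraries (SD, n = 3), again a balance chosen after its values were seen. With a gene length offset Cope changed by 2.09 and Arcn1 by −0.68. The gap between these genes was smaller there than on the TMM scale, and the balance carries no such correction.

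The other COPI genes moved less. Copg1 had 190, 149 and 163 CPM and then 307, 300 and 295 CPM (0.85 ± 0.15, adjusted p = 0.000344). Copg2 had 23.5, 20.9 and 21.8 CPM and then 39.6, 47.0 and 47.3 CPM (1.02 ± 0.17, adjusted p = 0.000216), and 16.3% of its 50-base stretches lie in the overlapping opposite-strand gene Mest. Copb2 had 209, 179 and 204 CPM and then 324, 321 and 300 CPM (0.67 ± 0.14, adjusted p = 0.00127). Copb1 went down, from 157, 167 and 172 CPM to 113, 102 and 131 CPM (−0.51 ± 0.15, adjusted p = 0.00834), a call that a gene length offset ended. Copa changed by 0.41 ± 0.16 (adjusted p = 0.0380). That call was lost without control replicate 2 (adjusted p = 0.16), control replicate 3 (0.159) or treated replicate 2 (0.119), and with no filter (0.292), and with library totals alone Copa was lower (−0.63). Treated and control libraries did not overlap for any of the 9 COPI genes on the TMM scale. Of all genes tested, 77.9% did not overlap.

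Ratios of related genes within a library do not depend on scaling. Of 17 pairs, 14 had enough counts to be tested by exact permutation (two-sided). With 3 libraries against 3 the smallest exact p is 0.1, so no pair can pass 0.05. Ratios did not overlap between groups in 11 of the 14 pairs, each with an exact p of 0.1 (0.127 after Benjamini-Hochberg adjustment over the 14 pairs). The share for ratios of other gene pairs was not measured, so this count cannot be called particular to these pairs. Among single genes, 77.9% of all those tested did not overlap in TMM-scaled CPM. Counts of Sec24c over Sec24d went from 0.810, 0.755 and 0.780 in controls to 9.44, 8.96 and 8.27 in treated libraries, a change of 3.51 on the log2 scale. Sec22b over Sec22a went from 6.09, 6.39 and 4.85 to 42.6, 64.8 and 61.1 (3.27). Sec24a over Sec24b went from 0.514, 0.697 and 0.569 to 1.72, 8.50 and 2.67 (2.53, and 1.86 without treated replicate 2). The first of these pairs moved evenly over the treated libraries and the last did not.

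Smaller shifts were a log2 change of 1.58 for Sec23a over Sec23b, 1.39 for Sec22b over Sec22c and 1.20 for Stt3a over Stt3b. In the other direction, Sec16a over Sec16b changed by −1.63, Copz1 over Copz2 by −1.45, Copb1 over Copb2 by −1.20 and Rpn1 over Rpn2 by −1.11. Sec11a over Sec11c changed by −0.24 with groups that do not overlap. The groups overlapped for Sec61a1 over Sec61a2 (−0.12, exact p = 0.6), Copg1 over Copg2 (−0.16, exact p = 0.3) and Srpr over Srprb (−0.04, exact p = 0.9). For these 3 pairs no unequal change was detectable with 3 libraries a group, which does not show that the partners changed alike.

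**Figure D4:**
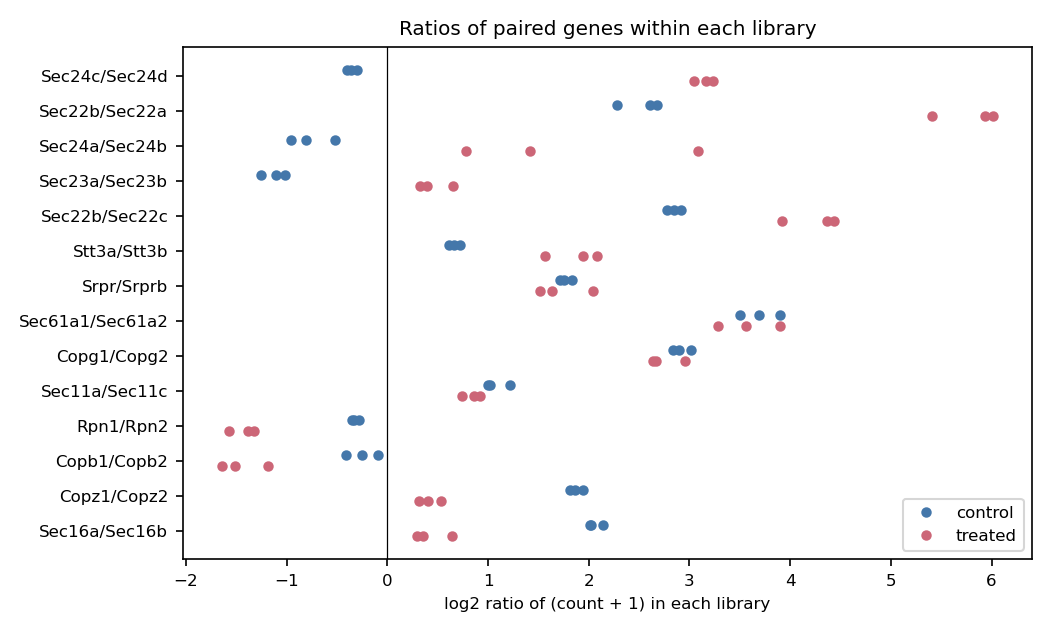
Log2 ratio of (count + 1) of paired genes in each of the 3 control and 3 treated libraries. Each row is a pair and each point is a library. Sec24c over Sec24d moves from near −0.36 to near 3.15, while Srpr over Srprb, Sec61a1 over Sec61a2 and Copg1 over Copg2 overlap between groups.

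On the TMM scale, change varied with gene size within the set. Of 18 genes with an annotated coding length under 750 bases, 17 rose and 0 fell, with a median log2 fold change of 1.60. Spcs2 was the exception, as it was not called. Among all 2357 tested coding genes of that size, 60.2% rose and 20.4% fell, with a median of 1.03. Of the 27 genes over 1500 bases, 8 rose and 13 fell, with a median of −0.22. Among all 5149 tested coding genes of that size, 18.5% rose and 57.8% fell, with a median of −1.0. The 10 genes between these lengths held 4 rises (Srprb, Ddost, Sec13 and Cope) and 1 fall (Sec22a). Among all 3934 tested coding genes of that size, 34.8% rose and 40.1% fell, with a median of −0.16. Spearman's rho between coding length and log2 fold change was −0.69 across the 55 genes and −0.40 across 11440 coding genes. Genes share libraries and are not independent replicates, so this is a description.

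Length did not order every gene. Rpn2, with 1893 coding bases, rose by 1.81, and Srp68, with 1875, fell by 1.58. Sec31a (3690 bases) and Copa (3672 bases) had log2 fold changes of −0.09 and 0.41, while Sec24b (3753 bases) had −4.59. With the trend on gene length removed by an offset, 38 of the 55 genes were higher and 10 lower, against 35.4% and 33.2% of all genes. The 9 genes called higher there but not on the TMM scale were Srp72, Sec61a1, Sec61a2, Sec63, Ssr1, Spcs2, Sec16b, Sec23a and Sec31a. The 10 lower genes were those lower in all 22 settings. Sec24b (−3.83), Sec24d (−3.59), Srp68 (−1.78), Sec22a (−1.64) and Sec23ip (−1.50) had the largest falls with the offset. Srp54c (−1.21), Sec24a (−1.18), Arcn1 (−0.68), Sec23b (−0.64) and Sec16a (−0.62) fell less. On the TMM scale these 5 genes had −1.41, −2.35, −2.06, −1.44 and −1.68, so part of their falls followed the length trend. The part of transcript length in the results was not tested beyond this offset.

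**Figure D5:**
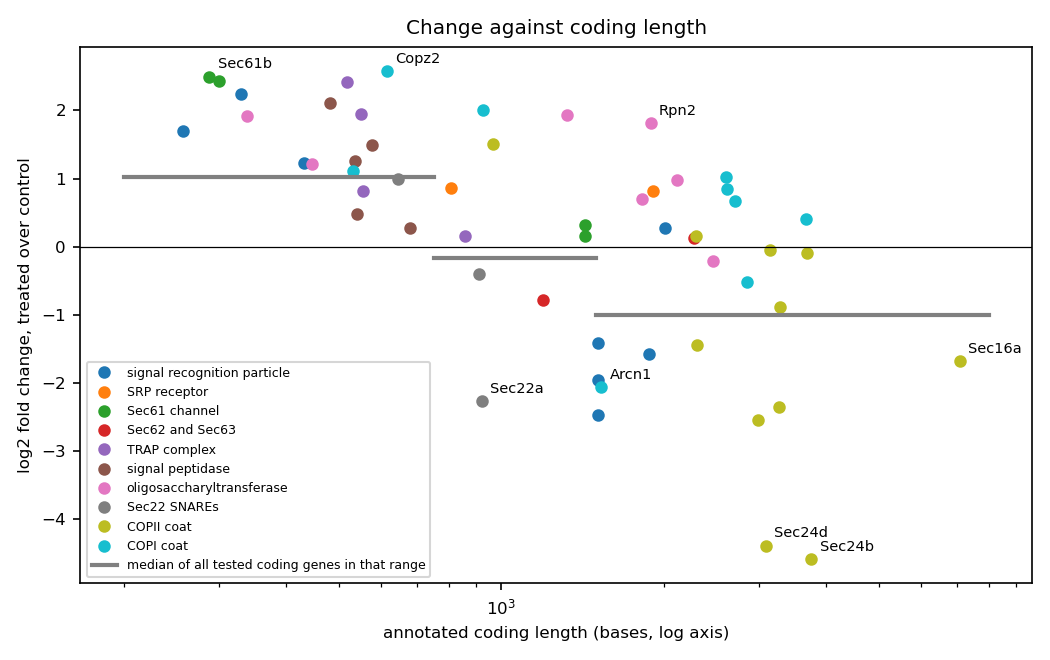
Log2 fold change on the TMM scale against annotated coding length (bases, log axis) for the 55 tested genes, coloured by role. Grey bars give the median of all tested coding genes under 750 bases (1.03), from 750 to 1500 bases (−0.16) and over 1500 bases (−1.0). Short genes such as Sec61b lie at the top, and Sec24b and Sec24d lie far below the grey bar of their size.

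Other genes of the route were described by lists, with counts from the same fit on the TMM scale and no test of a list. Across all genes tested, 34.6% were higher and 40.2% lower on that scale (median −0.18), and 17.1% and 59.6% by library totals. Cargo receptors and p24 proteins, which ride in COPII and COPI vesicles, held 21 rises and 0 falls among 23 genes (median 1.09), led by Ergic3 (2.51 ± 0.18) and Bcap31 (2.34 ± 0.17). With library totals alone, 7 of them were higher and 2 lower. COPII and COPI regulators held 4 rises and 8 falls among 16 genes (median −0.81). Arf5 (2.47 ± 0.20) and Arf4 (1.45 ± 0.16), GTPases of the COPI system, rose, and Arfgap3 (−2.36 ± 0.20) and Arfgap1 (−2.17 ± 0.17), which act on Arf GTPases, fell. By library totals, 2 regulators were higher and 12 lower.

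Among other membrane insertion factors, 17 of 26 tested genes rose and 3 fell (median 1.05). Emc10 of the ER membrane complex (2.44 ± 0.20) and Asna1, the ATPase for tail-anchored proteins (2.37 ± 0.17), rose most, and Tram2 (−1.98 ± 0.30) and Caml (−1.04 ± 0.19) fell most. By library totals 9 were higher and 10 lower. The 5 oligosaccharyltransferase subunits outside the 56 genes all rose (median 1.84), with Ost4 at 3.00 ± 0.27 and Tmem258 at 2.43 ± 0.25, and 4 of the 5 were higher with library totals alone. Synthesis of the lipid-linked glycan that the transferase uses held 8 rises and 9 falls among 22 genes (median −0.14). These shares, 36.4% and 40.9%, lie near those of all genes tested (34.6% and 40.2%). The list included Dpm3 (2.88 ± 0.28), Mpdu1 (2.20 ± 0.22), Dolk (−2.27 ± 0.25) and Alg11 (−1.42 ± 0.31). Library totals gave 2 of the 22 higher and 15 lower. ER lumen chaperones held 12 rises and 1 fall among 18 genes (median 0.79), with Ppib (2.32 ± 0.21) and P4hb (1.93 ± 0.19) the largest rises and Hspa5, which encodes BiP, the fall (−0.68 ± 0.17). By library totals 6 were higher and 7 lower.

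After vesicle budding, tethers and SNAREs between ER and Golgi held 8 rises and 19 falls among 32 genes (median −1.18). Trappc6a (3.02 ± 0.21) and Trappc2l (2.70 ± 0.19) rose, and Trappc8 (−3.40 ± 0.31), a further subunit of the same TRAPP tether, and Zw10 (−3.27 ± 0.24) fell. Library totals gave 6 higher and 24 lower. Clathrin and adaptor coats, which act after the Golgi and at the cell surface, held 10 rises and 3 falls among 18 genes (median 0.60). Their small subunits Ap2s1 (2.66 ± 0.22) and Ap3s1 (2.14 ± 0.16) rose, and the large subunits Ap1g1 (−3.36 ± 0.21) and Cltc (−2.74 ± 0.22) fell. By library totals 5 were higher and 9 lower. Whether COPII differs from these coats was not tested.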

How the data were processed

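RNA from 3 control and 3 treated L929 libraries was sequenced. The authors deposited a count table with whole numbers per gene, with gene length in bases (a value of type other, per the file headers). The deposited FPKM table holds the authors' FPKM, which equals count per length times 1 constant per library (0.635 to 0.719 in controls and 1.22 to 1.64 in treated libraries, against a value set by library total). Tools named per the submitters' processing notes are DESeq2 1.24.0, RSEM 1.3.1 and HISAT2 2.1.0, and mm10 and GRCm38 are the builds. The sources used here do not state whether counting used strand. That bears on the 18 of the 56 genes whose exons overlap a gene on the opposite strand, and 13 share over 10% of their 50-base stretches with other genes. Besides those given above, these are Srp9 (17.4%), Ssr2 (11.0%), Sec62 (10.6%) and Spcs1 (10.6%). Control columns carry the genotype name and were matched to control samples by number.

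The 24708 genes with a count were reduced to 13290 by filterByExpr and tested with edgeR 4.0.16 (TMM scaling, robust glmQLFit and glmQLFTest, R 4.3.3), with Benjamini-Hochberg adjustment over all of them. Standard errors are log2 fold change over the square root of the F statistic. Coding lengths and shared sequence come from GENCODE M21. Alternatives were other scaling factors, filters, DESeq2 1.42.0, limma 3.58.1 (voom, and log2(FPKM + 1) or log2(FPKM + 0.1)), a replicate block, a gene length offset, a table of protein-coding genes alone, and each library left out in turn. Every one of the 56 genes is named or counted. All 6 values are given for the largest rise and fall of each role group and for paired genes, and each other list is shown by up to 2 rises and 2 falls (mean CPM at least 1). The genes and lists were chosen with earlier results of these data known. Tested on simulated data over 12984 genes, edgeR found 51 of 96 genes with a log2 change of 1 and 85 of 97 with a log2 change of 2, while 10 of its 146 calls were false. In a simulation with length bias (12922 genes), false calls were 266 of 409 without and 12 of 146 with the length offset. The simulated bias raised longer genes in treated libraries, opposite in direction to the data. Apart from it, the simulations changed few genes, with rises and falls drawn in equal number. In the data most genes were called, so the simulations do not measure false calls or TMM scaling here.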

Additional observations from a re-analysis of the deposited data

How the results depend on the processing

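Scaling changed the counts most. With library totals alone 2277 genes were higher in all, and 14 of the 55 genes described were higher and 30 lower, with Spcs3 (−0.57), Rpn1 (−0.34), Copa (−0.63) and Copb2 (−0.37) turned to lower values. With mitochondrial mRNAs held equal 2962 genes were higher, 16 of them among the 55. With ribosomal protein genes held equal 251 genes were higher and 10944 lower, and 0 and 49 of the 55. There 2 of the 55 genes had a value above 0. Of the 29 genes higher on the TMM scale, 6 were no longer called and 23 became lower calls, as did Arf4 and P4hb of the wider lists: Srp19 (−1.21), Srp9 (−0.72), Srpr (−1.54), Srprb (−1.54), Ssr2 (−0.46), Ssr3 (−1.58), Sec11a (−1.16), Sec11c (−0.92), Spcs3 (−1.93), Dad1 (−0.50), Ddost (−0.46), Ostc (−1.21), Rpn1 (−1.69), Rpn2 (−0.58), Stt3a (−1.40), Sec22b (−1.42), Sec13 (−0.89), Copa (−1.97), Copb2 (−1.72), Cope (−0.42), Copg1 (−1.54), Copg2 (−1.36), Copz1 (−1.28), Arf4 (−0.94) and P4hb (−0.46). The construction of these scales, which hold other genes equal, sets the shift. In every other setting tried, the counts of higher and lower genes, over all genes and among the 55, stayed within 1.5 times.

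Relative to the median of all genes, the median of the SRP genes (−0.39) was 0.76 with limma on log2(FPKM + 1) and 0.81 on log2(FPKM + 0.1), where 53 of the genes were tested. Srp54a and Srp54b, SRP genes called lower on the TMM scale, were not tested there, so these medians are over fewer SRP genes. Every SRP gene that was tested there kept its call. The median of the Sec22 genes relative to that of all genes (−0.23) was 0.31 with the gene length offset and 0.34 with that offset and a replicate block. Leaving out 1 library gave 27 to 30 higher and 12 to 15 lower calls among the 55. The change of log2 Sec61a1 over Sec61a2 then ran from −0.28 to 0.030 and that of Srpr over Srprb from −0.19 to 0.069.

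The labels do not say whether replicate numbers pair the samples. Deviations of same-numbered libraries correlated at 0.220, −0.137 and 0.029, and those of libraries with different numbers at −0.377 to 0.383. With 3 libraries a group these values cannot show whether the samples are paired. A replicate block gave 4450 higher and 5411 lower genes, with 28 higher and 15 lower of the 55: Copa was lost (adjusted p = 0.0594) and Sec62 was called lower (adjusted p = 0.00542). Depth limits Srp54a (4 counts over the treated libraries), Srp54b (55) and Sec31b (16).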
